A study of Mus musculus with 16 samples.

Results

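The genes described here encode the mitochondrial ribosomal proteins, measured in mouse liver. They were taken as every gene that a row of the array annotation names with 1 symbol made of Mrpl or Mrps, a number and, in a few cases, a letter. Where a gene had more than 1 probe set, the one used was selected on its mean over the 16 arrays, the highest being taken, so the levels given below are a description and no level is compared between genes. By this rule there were 77 members, 48 Mrpl genes and 29 Mrps genes, among 15908 genes tested, and all 77 passed the filter on low values. Mrpl53 shares its probe set with another gene and is not among them.

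Whole liver of male mice on a C57Bl/6 background was profiled with Affymetrix whole-transcript arrays, 4 arrays in each of 4 groups. The groups were S534A mice that received lipopolysaccharide (LPS, an endotoxin of bacteria) at 1 mg/kg, WT mice that received the same dose, untreated S534A mice and untreated WT mice. S534A is a homozygous knock-in of p65, the NF-kB subunit encoded by Rela, in which a serine codon (TCC) of exon 10 was changed to alanine (GCA), and the line was made from targeted embryonic stem cells and backcrossed to C57Bl6/J. The substitution is present in every cell, so no cell type can be singled out as the one in which it acts. The labels give neither the hour of collection after LPS nor a group given vehicle alone, so effects of LPS cannot be told apart from those of handling, food intake or time of day. One line of the series text attaches the LPS dose to the untreated S534A group as well, and the sample titles and source names, which call these livers untreated, were followed. Nothing in the labels says that the 4 samples of a group are 4 animals, and the p-values below therefore describe the spread between samples, part of which may be technical.

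Array medians lay between 6.25 and 6.42 on the log2 scale, at 6.37 to 6.42 in LPS arrays and at 6.25 to 6.35 in untreated ones. No 2 arrays held identical values, and the first principal component carried 78.5% of the variance. Rela rose after LPS in both genotypes (1.41 ± 0.08 in S534A and 1.22 ± 0.08 in WT, log2 change ± SE, limma adjusted p = 2.75e-10 and 1.66e-09), and since the targeted change is a point substitution its level does not check the genotype labels. The 9 hepatocyte markers averaged between 13.34 and 13.46 on every array, against the array medians above.

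Mitochondria hold a ribosome of their own that translates the few proteins encoded by mitochondrial DNA, all of them core subunits of the respiratory chain or ATP synthase. Its proteins are encoded in the nucleus, made in the cytosol and imported, and they assemble with ribosomal RNA made inside the organelle. Many descend from bacterial ribosomal proteins, and others exist only in mitochondria, where they form an outer shell around a reduced RNA core. The symbols follow the subunit in most cases: Mrpl proteins lie in the large subunit and Mrps proteins in the small one, with Mrps18a and Mrps30 as exceptions that are found in the large subunit. Of the members, 30 encode large-subunit proteins with bacterial homologues and 20 large-subunit proteins specific to mitochondria, and 16 and 10 encode such proteins of the small subunit. Mrps18a was counted among the 20, although it descends from a bacterial protein. Mrps36 was placed in no class, because its product is now regarded as a component of the ketoglutarate dehydrogenase complex.

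Most mitochondrial ribosomal protein genes had lower transcript levels after LPS in the values as deposited, in both genotypes, by small amounts. In S534A livers 42 of the 77 fell and 1 rose at a limma adjusted p under 0.05, when 31.2% of all tested genes fell and 14.2% rose. In WT livers 46 fell and 1 rose, when 29.9% of all tested genes fell and 14.9% rose. The median member changed by −0.25 in S534A and −0.29 in WT, against −0.03 and −0.05 for all tested genes, and single members spanned −1.32 to 0.49 in S534A and −1.34 to 0.31 in WT. A member's groups did not overlap, with LPS lower, for 45 members in S534A (31.7% of all genes) and 40 in WT (25.6% of all genes). In whole tissue, fewer cells of a type and less RNA per cell cannot be told apart.

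The size of this shift depends on how the arrays are scaled, and in S534A the excess of falls over all genes was not seen under every scaling. When the trend of each array with mean level was removed, 17 members fell and 15 rose in S534A, shares close to the 23% and 22% of all genes that did so, while in WT 31 fell and 6 rose against 21.9% of all genes in each direction. The median member then stood at −0.05 in S534A and −0.11 in WT, and at 0.02 and 0.01 for all genes. Removal of a trend with gene length left 32 falls and 6 rises in S534A (24.8% and 22.4% of all genes) and 34 falls and 4 rises in WT (22.8% and 21.2% of all genes). With each array centred on its own median, the median of all genes stood at −0.13 in S534A and −0.16 in WT and 54 and 63 members fell, against 39.2% and 40.8% of all genes. The 8 members that fell at least 1.5-fold in both genotypes (Mrpl9, Mrpl12, Mrpl15, Mrpl34, Mrpl36, Mrpl43, Mrpl49 and Mrps27) also fell under each of these scalings and after a second quantile normalization.

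**Figure D1:**
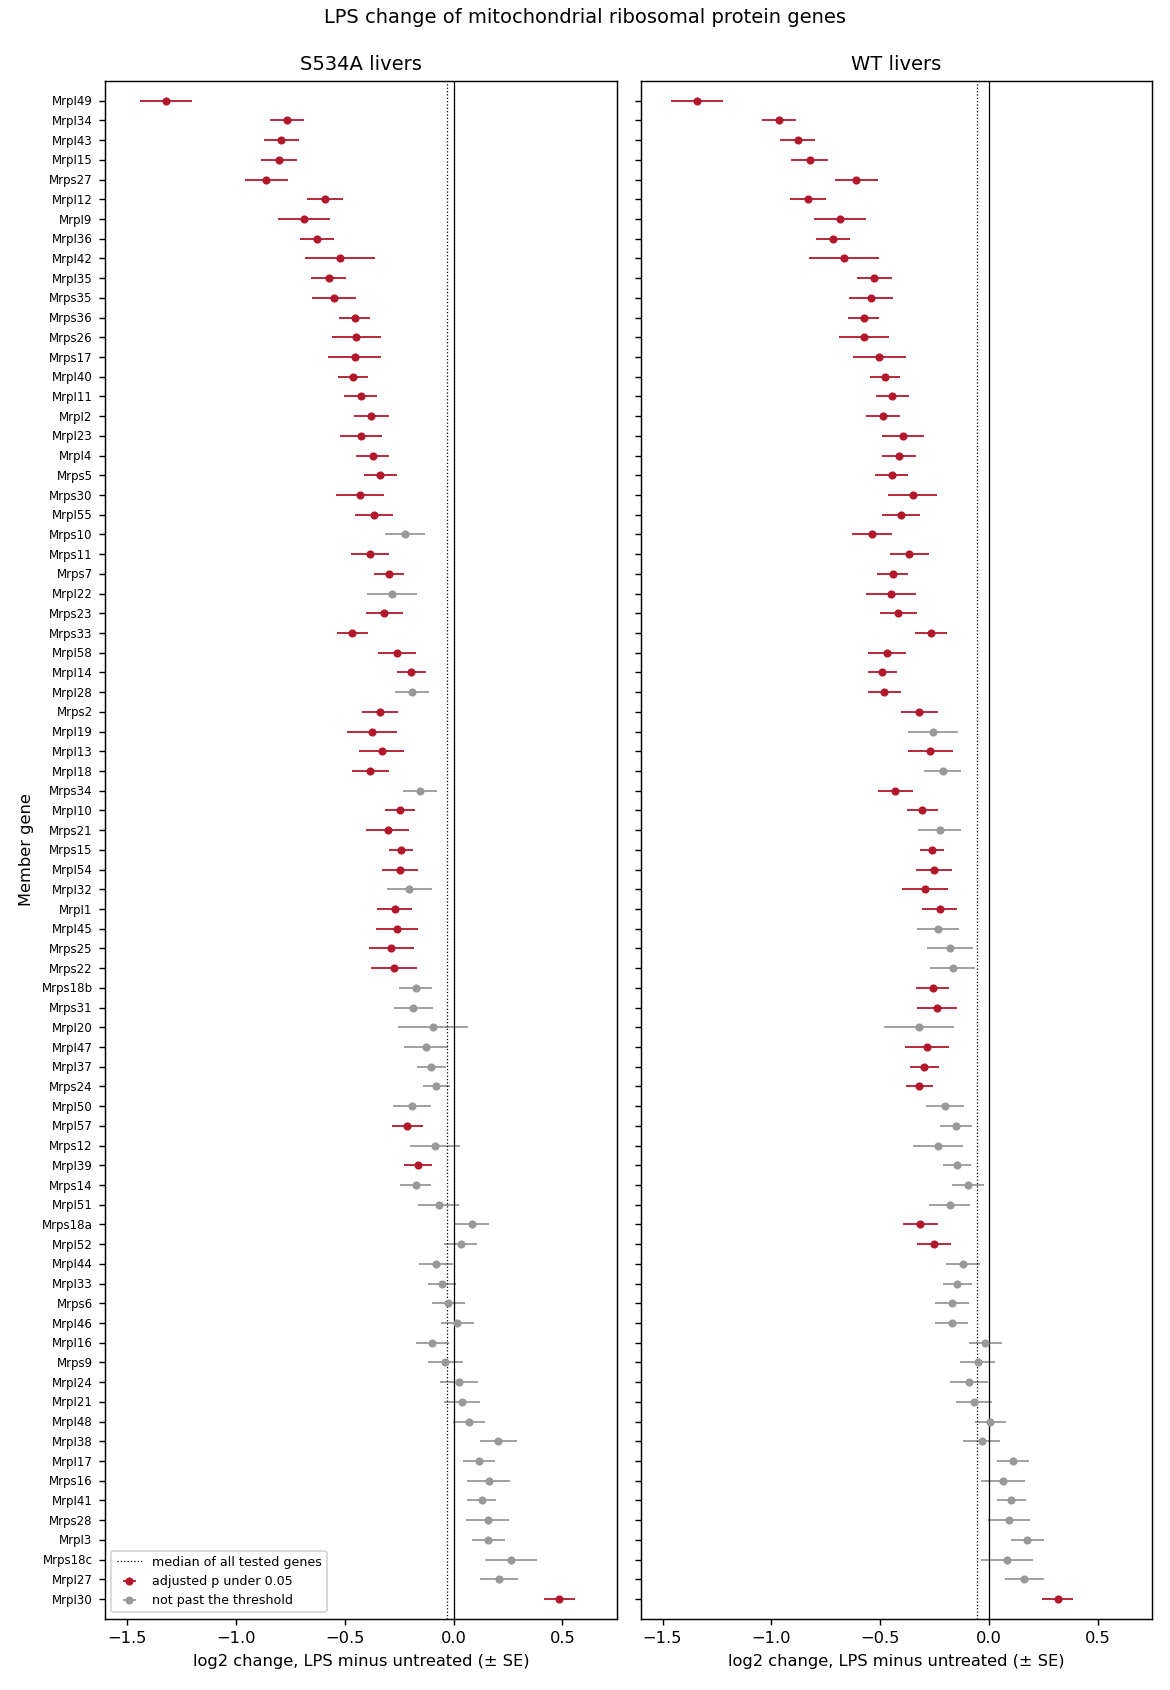
The log2 change after LPS (LPS minus untreated, horizontal axis, ± SE of the limma fit, n = 4 per group) is drawn for each of the 77 members in S534A livers (left) and WT livers (right). Red points pass an adjusted p of 0.05, the dotted line is the median of all tested genes, and most members lie to its left, with Mrpl49 lowest and Mrpl30 the red point on the right; with the level trend removed the S534A calls are 17 lower and 15 higher.

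Averaged over all members, the LPS arrays lay below the untreated arrays of their genotype. The mean deviation of the 77 members from each gene's own mean was −0.141, −0.165, −0.182 and −0.188 in the S534A LPS arrays and −0.206, 0.002, −0.069 and −0.174 in the WT LPS arrays. It was 0.110, 0.041, 0.065 and 0.092 in untreated S534A arrays and 0.257, 0.197, 0.157 and 0.205 in untreated WT arrays. No LPS array reached the lowest untreated one of its genotype, and WT LPS array 2 lay closest to the untreated arrays. On that array 41 of the 77 members stood above their own mean, which was the highest number among WT LPS arrays, whose lowest was 8. The median of all tested genes moved far less, between −0.064 and −0.005 in S534A LPS arrays and between 0.014 and 0.068 in untreated WT arrays. The median SD of a member within a group was 0.084 in S534A LPS, 0.130 in WT LPS, 0.085 in untreated S534A and 0.096 in untreated WT livers, against 0.108, 0.145, 0.105 and 0.149 over all tested genes.

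**Figure D2:**
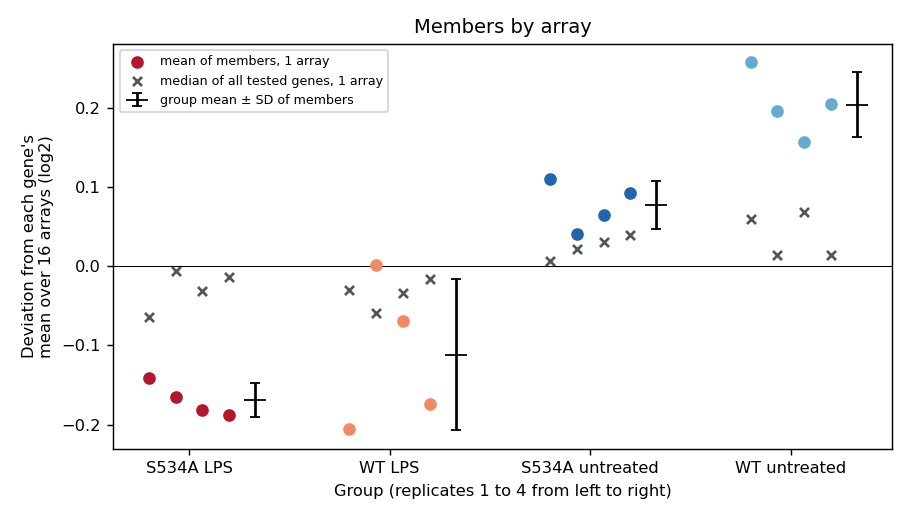
Each filled point is 1 array, the mean deviation (log2, vertical axis) of the 77 members from each gene's mean over 16 arrays, crosses are the median of all tested genes on that array, and bars give the group mean ± SD (n = 4). LPS arrays lie between −0.206 and 0.002 and untreated arrays between 0.041 and 0.257, and the untreated S534A points all lie under the untreated WT points.

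With the values as deposited, falls occurred in both subunits and both kinds of protein, when 31.2% of all tested genes fell in S534A and 29.9% in WT. Among large-subunit proteins with bacterial homologues 17 of 30 (56.7%) fell in S534A and 19 (63.3%) in WT. Among mitochondria-specific ones 10 of 20 (50%) fell in each genotype. Among small-subunit proteins 7 of 16 with bacterial homologues (43.8%) fell in S534A and 8 (50%) in WT. Of the 10 mitochondria-specific ones 7 (70%) and 8 (80%) fell. Class medians ranged from −0.18 to −0.30 in S534A and from −0.24 to −0.34 in WT, and no difference between classes was tested. Of the genes that fell, 34 fell in both genotypes, which is 81.0% of the S534A falls and 73.9% of the WT falls, against 82.4% and 85.9% over all tested genes. Another 8 passed in S534A only (Mrpl18, Mrpl19, Mrpl39, Mrpl45, Mrpl57, Mrps21, Mrps22 and Mrps25) and 12 in WT only (Mrpl22, Mrpl28, Mrpl32, Mrpl37, Mrpl47, Mrpl52, Mrps10, Mrps18a, Mrps18b, Mrps24, Mrps31 and Mrps34). None of these passed the threshold in the test of a difference in LPS effect given further below. That test called 0% of all genes, so a missing call does not show that the effects were equal. The remaining 23 fell in neither.

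Mrpl49, a mitochondria-specific protein of the large subunit, fell most. It stood at 8.37, 8.10, 8.51 and 8.40 in S534A livers after LPS and at 9.77, 9.66, 9.53 and 9.72 in untreated S534A livers. In WT it was 8.24, 8.78, 8.43 and 8.25 after LPS and 9.85, 9.54, 9.78 and 9.89 without treatment. The groups lie far apart in both genotypes, with WT LPS array 2 the highest of the treated arrays. The change was −1.32 ± 0.12 in S534A (2.50-fold lower, limma adjusted p = 1.15e-07) and −1.34 ± 0.12 in WT (2.53-fold lower, adjusted p = 9.72e-08).

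Mrpl43, another mitochondria-specific protein of the large subunit, was measured at 8.38, 8.35, 8.54 and 8.56 after LPS in S534A and at 9.27, 9.21, 9.14 and 9.36 in untreated S534A livers. In WT livers it was 8.44, 8.75, 8.62 and 8.43 after LPS and 9.48, 9.38, 9.44 and 9.45 untreated. Treated and untreated arrays did not overlap in either genotype, and the change was −0.79 ± 0.08 in S534A and −0.88 ± 0.08 in WT (limma adjusted p = 4.51e-07 and 1.37e-07). Mrpl42, of the same class, varied more. Its values were 7.40, 7.36, 7.41 and 7.41 after LPS and 8.13, 7.83, 8.02 and 7.68 untreated in S534A, and 7.34, 7.84, 7.43 and 7.19 after LPS and 7.80, 8.29, 7.83 and 8.55 untreated in WT. WT LPS array 2 lay above untreated WT arrays 1 and 3, and the change was −0.52 ± 0.16 in S534A and −0.67 ± 0.16 in WT (limma adjusted p = 0.0128 and 0.00238). The S534A change missed the threshold with the level trend removed (adjusted p = 0.0775).

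Large-subunit proteins with bacterial homologues gave most of the other large falls. Mrpl34 stood at 9.59, 9.56, 9.54 and 9.36 after LPS and 10.20, 10.22, 10.34 and 10.33 untreated in S534A, and at 9.49, 9.59, 9.78 and 9.57 after LPS and 10.71, 10.48, 10.55 and 10.55 untreated in WT. It fell by 0.76 ± 0.08 and 0.96 ± 0.08 on the log2 scale in S534A and WT (limma adjusted p = 4.82e-07 and 3.18e-08), with a clear gap between the groups in both. Mrpl15 was 9.29, 9.26, 9.39 and 9.43 after LPS and 10.22, 10.17, 10.03 and 10.17 untreated in S534A, and 9.27, 9.59, 9.64 and 9.41 after LPS and 10.38, 10.19, 10.26 and 10.37 untreated in WT. Its changes, −0.80 ± 0.08 in S534A and −0.82 ± 0.08 in WT, were nearly equal (limma adjusted p = 6.35e-07 and 4.91e-07).

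Mrpl12 forms part of the stalk that recruits translation factors to the ribosome, and it also binds the mitochondrial RNA polymerase. Its level was 9.51, 9.56, 9.71 and 9.63 after LPS and 10.19, 10.20, 10.18 and 10.20 untreated in S534A, and 9.71, 9.59, 9.78 and 9.41 after LPS and 10.59, 10.44, 10.48 and 10.31 untreated in WT. The 4 untreated S534A values were almost identical and all lay under the 4 untreated WT values, while the LPS groups overlapped. The fall was −0.59 ± 0.08 in S534A and −0.83 ± 0.08 in WT (limma adjusted p = 1.43e-05 and 3.26e-07).

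Mrpl36 was 9.20, 9.11, 9.19 and 9.22 after LPS and 9.88, 9.73, 9.86 and 9.76 untreated in S534A, and 9.20, 9.40, 9.54 and 9.24 after LPS and 10.19, 10.02, 10.00 and 10.04 untreated in WT. It fell by 0.63 ± 0.08 in S534A and 0.72 ± 0.08 in WT on the log2 scale, with no overlap. Mrpl9 was 8.30, 8.36, 8.24 and 8.32 after LPS and 9.02, 9.12, 8.81 and 9.02 untreated in S534A, and 8.26, 8.66, 8.20 and 8.10 after LPS and 8.78, 8.99, 8.88 and 9.31 untreated in WT. It changed by −0.69 ± 0.12 in each genotype, again without overlap, although WT LPS array 2 came close to untreated WT array 1. Mrpl35 was 9.48, 9.43, 9.55 and 9.51 after LPS and 10.09, 9.98, 10.03 and 10.18 untreated in S534A, and 9.39, 9.65, 9.48 and 9.40 after LPS and 10.18, 9.88, 10.07 and 9.90 untreated in WT. The changes of Mrpl35 were −0.57 ± 0.08 and −0.53 ± 0.08 in S534A and WT (limma adjusted p = 1.70e-05 and 4.17e-05).

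Mrps27, a pentatricopeptide-repeat protein, fell most among small-subunit genes. It was 7.55, 7.66, 7.55 and 7.71 after LPS and 8.45, 8.42, 8.58 and 8.45 untreated in S534A, and 7.81, 8.11, 7.78 and 7.63 after LPS and 8.68, 8.31, 8.46 and 8.33 untreated in WT. All treated arrays lay below all untreated ones, and the S534A LPS arrays lay below the first 3 WT LPS arrays but not below the last. The change was −0.86 ± 0.10 in S534A and −0.61 ± 0.10 in WT (limma adjusted p = 1.90e-06 and 7.54e-05). Mrps35, also mitochondria-specific, was 8.25, 8.06, 8.03 and 8.17 after LPS and 8.76, 8.79, 8.44 and 8.73 untreated in S534A, and 8.07, 8.34, 8.22 and 7.91 after LPS and 8.77, 8.68, 8.52 and 8.76 untreated in WT. The third untreated S534A array was the low one of its group, and the groups still did not overlap, with changes of −0.55 ± 0.10 and −0.54 ± 0.10 in S534A and WT (limma adjusted p = 0.000235 and 0.000277).

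Mrpl30 was the exception. This homologue of a bacterial large-subunit protein was the only member that rose past the threshold. It stood at 10.54, 10.69, 10.59 and 10.52 after LPS and 10.04, 10.08, 10.11 and 10.16 untreated in S534A, and at 10.41, 10.61, 10.68 and 10.48 after LPS and 10.30, 10.18, 10.31 and 10.14 untreated in WT. Each treated array lay above each untreated array of its genotype, and the rise was 0.49 ± 0.07 in S534A (1.40-fold, limma adjusted p = 2.78e-05) and 0.31 ± 0.07 in WT (1.24-fold, adjusted p = 0.00161). Its direction was upward under every scaling tried.

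**Figure D3:**
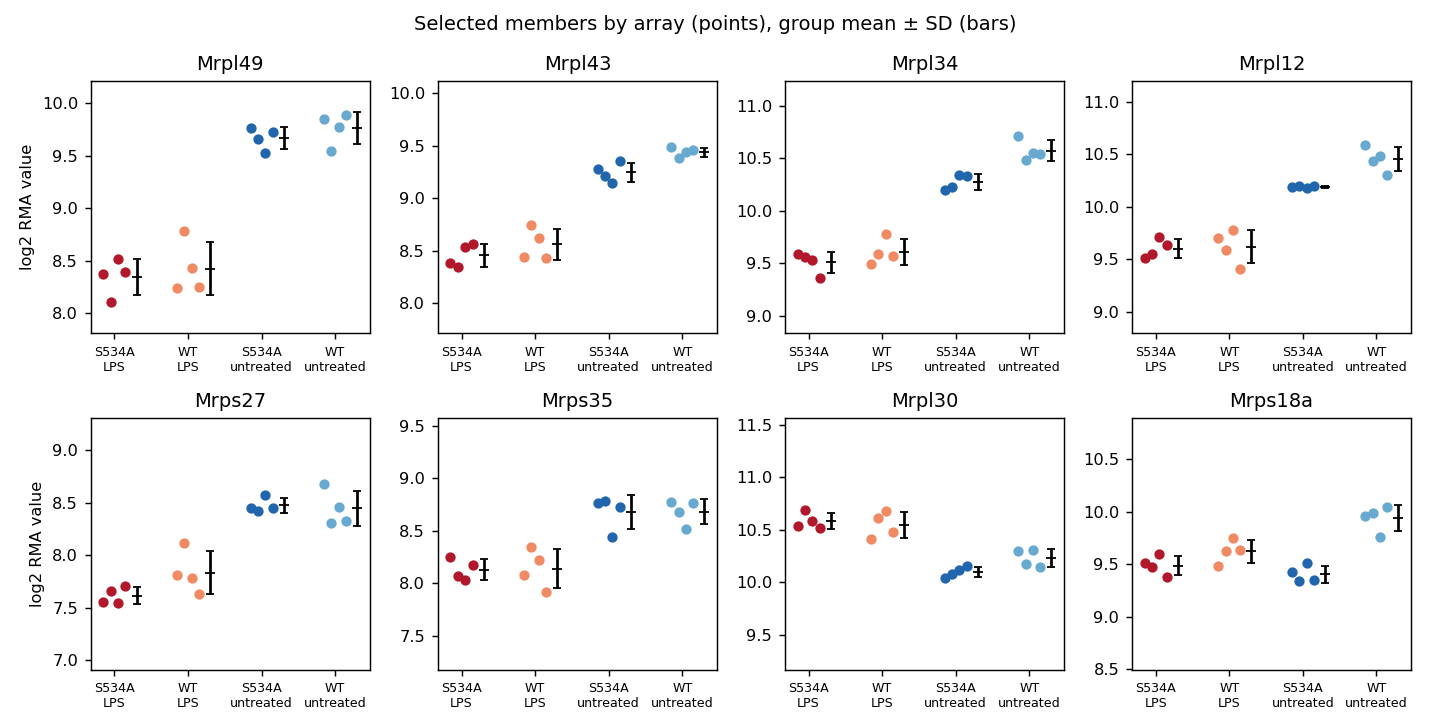
Log2 values of 8 members are plotted by array (points, 4 per group, with the group mean ± SD beside them) in S534A LPS, WT LPS, S534A untreated and WT untreated livers, and every panel spans the same 2.4 log2 units. Mrpl49, Mrpl43, Mrpl34, Mrpl12, Mrps27 and Mrps35 are lower after LPS, Mrpl30 is higher, and Mrps18a is highest in untreated WT livers.

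The bases in front of the transcription start are shown for the member that fell most (Mrpl49), for 2 others with large falls (Mrpl43 and Mrpl12), for the member that rose (Mrpl30) and for the member that differed between untreated genotypes (Mrps18a). They are the 250 bases before the RefSeq start on build GRCm38.p6, 5′ to 3′ on the gene's strand. They lie at chr19:6057756-6058005 (minus strand, Mrpl49), chr19:45006443-45006692 (minus, Mrpl43), chr11:120484387-120484636 (plus, Mrpl12), chr1:37890227-37890476 (plus, Mrpl30) and chr17:46110754-46111003 (plus, Mrps18a). Capitals mark matches, on either strand, to the letters GCGCANGCG (the core of sites of NRF1, a regulator of nuclear genes for mitochondrial proteins), CCGGAAG (an ETS-type site, the kind bound by GABP, another such regulator) or AAGATGGCG (YY1).
Mrpl49: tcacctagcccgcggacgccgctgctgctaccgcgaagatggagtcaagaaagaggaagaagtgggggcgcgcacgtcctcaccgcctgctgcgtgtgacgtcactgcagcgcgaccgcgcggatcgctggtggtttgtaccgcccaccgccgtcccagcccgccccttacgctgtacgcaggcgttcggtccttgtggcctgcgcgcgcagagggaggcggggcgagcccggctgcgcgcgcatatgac
Mrpl43: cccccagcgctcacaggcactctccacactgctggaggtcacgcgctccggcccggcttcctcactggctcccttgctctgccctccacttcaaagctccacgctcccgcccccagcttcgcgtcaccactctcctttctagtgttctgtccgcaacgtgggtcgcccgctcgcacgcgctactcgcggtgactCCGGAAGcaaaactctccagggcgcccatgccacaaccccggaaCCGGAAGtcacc
Mrpl12: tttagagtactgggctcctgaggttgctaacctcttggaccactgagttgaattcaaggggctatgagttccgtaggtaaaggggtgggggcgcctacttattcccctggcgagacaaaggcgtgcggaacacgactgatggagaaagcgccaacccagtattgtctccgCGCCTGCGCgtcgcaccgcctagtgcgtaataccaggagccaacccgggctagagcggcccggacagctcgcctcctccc
Mrpl30: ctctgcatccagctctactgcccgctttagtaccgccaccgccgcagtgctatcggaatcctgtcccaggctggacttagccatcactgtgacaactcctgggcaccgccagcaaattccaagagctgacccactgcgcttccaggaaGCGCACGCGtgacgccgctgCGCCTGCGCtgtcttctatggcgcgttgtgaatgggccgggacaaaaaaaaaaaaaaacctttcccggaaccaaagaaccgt
Mrps18a: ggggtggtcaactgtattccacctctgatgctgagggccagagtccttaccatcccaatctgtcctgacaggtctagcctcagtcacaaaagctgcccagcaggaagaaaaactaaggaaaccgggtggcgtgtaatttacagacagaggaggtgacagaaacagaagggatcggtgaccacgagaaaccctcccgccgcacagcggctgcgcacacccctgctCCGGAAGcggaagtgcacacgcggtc
The NRF1 core stood 80 bases before the start in Mrpl12, which fell, and 82 and 102 bases before it in Mrpl30, which rose. The ETS letters stood 56 and 12 bases before the start of Mrpl43 and 26 before that of Mrps18a. The printed bases of Mrpl49 held none of the 3.

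RefSeq windows running from 250 bases before to 50 after the start were matched by symbol for 68 of the 77 members (74 windows), and the same letters were counted, on both strands, in the 15762 windows of all tested genes. The NRF1 core occurred in 16 member windows (21.6%, against 10.5% of all windows), the ETS letters in 25 (33.8%, against 13.8%) and the YY1 letters in 8 (10.8%, against 2.28%). Other letters were near the general share: CACGTG in 9.46% of member windows against 9.06%, GGGCGG in 52.7% against 55.8%, and CCAAT in 39.2% against 36.6%. The general consensus of NF-kB sites matched in 5 member windows (6.76%, against 10.4%). The letters for NRF1 and NF-kB were loosened after counts with stricter ones had been seen, and fewer member windows matched the stricter letters. Those counts are not given, so the shares above do not show whether the NRF1 difference held with them. Matches of different motifs may share bases. Of the 16 genes with the NRF1 core 9 fell in S534A and 8 in WT, against 27 and 32 of the 52 matched members without it. Of the 25 with the ETS letters 11 fell in each, against 25 in S534A and 29 in WT of the 43 without them. Of the 8 genes with the YY1 letters (Mrpl35, Mrpl36, Mrpl37, Mrpl42, Mrps11, Mrps18a, Mrps24 and Mrps27) 5 fell in S534A and 8 in WT, against 31 and 32 of the 60 matched members without them. Of the 5 with an NF-kB match 4 fell in S534A and 5 in WT, against 32 and 35 of the 63 without one. These are counts of letters and were not tested.

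Mrps18a, Mrps18b and Mrps18c, 3 paralogs that descend from a single bacterial protein, gave different values. In spite of this descent Mrps18a was counted above with the mitochondria-specific proteins of the large subunit. Mrps18a, which lies in the large subunit, was 9.51, 9.47, 9.60 and 9.38 after LPS and 9.42, 9.34, 9.51 and 9.35 untreated in S534A, and 9.48, 9.63, 9.75 and 9.63 after LPS and 9.96, 9.99, 9.76 and 10.05 untreated in WT. The untreated WT arrays were the 4 highest of the 16. The LPS change was 0.08 ± 0.08 in S534A (limma adjusted p = 0.426) and −0.32 ± 0.08 in WT (adjusted p = 0.00337), and the WT call was lost with the length trend (0.0669) or the level trend (0.138) removed. In S534A the value became 0.29 with the level trend removed (0.00677).

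Mrps18b, in the small subunit, was 10.68, 10.53, 10.55 and 10.53 after LPS and 10.81, 10.69, 10.76 and 10.74 untreated in S534A, and 10.42, 10.77, 10.75 and 10.55 after LPS and 10.96, 10.82, 10.89 and 10.86 untreated in WT. The change was −0.17 ± 0.08 in S534A and −0.26 ± 0.08 in WT (limma adjusted p = 0.0766 and 0.0106). The WT call was lost with the level trend (0.222) or the length trend (0.180) removed, in a fit of the 2 WT groups alone (0.0561) and without the untreated arrays WT 1 and 3 and S534A 3 (0.103), and the S534A value was 0.0085 with the level trend removed. The S534A fall passed with arrays centred on their medians, a second quantile normalization, array weights, the 2 S534A groups alone or without WT LPS array 1 (adjusted p = 0.0117 to 0.0460). Mrps18c, which keeps the place of the bacterial protein, was 9.48, 9.02, 9.26 and 9.08 after LPS and 9.06, 8.82, 9.06 and 8.86 untreated in S534A, and 9.20, 9.35, 9.51 and 9.28 after LPS and 9.17, 9.60, 9.07 and 9.17 untreated in WT. Its groups overlapped in both genotypes, and its change, 0.26 ± 0.12 in S534A and 0.08 ± 0.12 in WT, did not pass (limma adjusted p = 0.0855 and 0.641). The S534A rise passed with the level trend removed (0.48, adjusted p = 0.00413), after a second quantile normalization (0.0307), with array weights (0.0156) and without untreated WT array 2 (0.0444) or S534A LPS array 2 (0.0496).

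Members with roles or positions apart from the core also fell. Mrps30, a large-subunit protein in spite of its name, was 7.34, 7.37, 7.06 and 7.21 after LPS and 7.83, 7.61, 7.56 and 7.69 untreated in S534A, and 7.21, 7.60, 7.26 and 7.09 after LPS and 7.63, 7.55, 7.50 and 7.88 untreated in WT. It changed by −0.43 ± 0.11 in S534A and −0.35 ± 0.11 in WT (limma adjusted p = 0.00445 and 0.0166), with overlap in WT through LPS array 2. The WT call was lost without untreated WT array 4 (adjusted p = 0.0616) or WT LPS array 4 (0.0640), and with the length trend (0.144) or the level trend (0.173) removed.

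Mrpl58, a peptidyl-tRNA hydrolase that releases stalled chains, was 9.42, 9.38, 9.41 and 9.54 after LPS and 9.78, 9.67, 9.60 and 9.75 untreated in S534A, and 9.32, 9.62, 9.73 and 9.47 after LPS and 10.18, 9.97, 9.89 and 9.97 untreated in WT. It changed by −0.26 ± 0.09 in S534A and −0.47 ± 0.09 in WT (limma adjusted p = 0.0222 and 0.000305). The S534A call was lost without S534A LPS array 2 or 3 or untreated S534A array 1 or 4 (adjusted p = 0.0508 to 0.0637), after a second quantile normalization (0.0639) and with the length trend removed (0.103), and with the level trend removed the change was −0.06 (0.641). Mrps36, the dehydrogenase component, was 5.59, 5.52, 5.66 and 5.59 after LPS and 6.16, 5.96, 6.13 and 5.94 untreated in S534A, and 5.64, 5.70, 5.66 and 5.58 after LPS and 6.25, 6.18, 6.11 and 6.34 untreated in WT. It fell without overlap in both, by 0.45 ± 0.07 and 0.58 ± 0.07 on the log2 scale in S534A and WT.

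The other members of the list filled the range between. Past the threshold in both genotypes were, among others, Mrpl40 (−0.46 ± 0.07 in S534A and −0.48 ± 0.07 in WT), Mrpl11 (−0.43 and −0.45), Mrpl2 (−0.38 and −0.49), Mrps17 (−0.45 and −0.50), Mrps26 (−0.45 and −0.57), Mrps5 (−0.34 and −0.45) and Mrps7 (−0.30 and −0.44), the last 4 being small-subunit proteins. Mrpl45, which lies at the mouth of the exit tunnel, changed by −0.26 ± 0.10 in S534A (limma adjusted p = 0.0363) and −0.24 ± 0.10 in WT (0.0577). Mrpl44, which carries a ribonuclease III-like fold, stood at −0.08 ± 0.08 and −0.12 ± 0.08 and did not pass in either. Mrps34, needed for a stable small subunit in mice, changed by −0.15 ± 0.08 in S534A (0.131) and −0.43 ± 0.08 in WT (0.000270).

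Of the genes that fell in neither genotype, several stood slightly above 0 in both. They included Mrpl27 (0.21 ± 0.09 in S534A and 0.16 ± 0.09 in WT), Mrpl3 (0.16 and 0.18), Mrpl17 (0.12 and 0.11), Mrps16 (0.16 and 0.06) and Mrps28 (0.16 and 0.09), none past the threshold. Mrpl20 was the most variable member in WT LPS livers (SD 0.383, n = 4), where it ranged between 8.40 and 9.28, and its changes of −0.10 ± 0.16 in S534A and −0.32 ± 0.16 in WT lay within that spread.

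For 8 members a second probe set gave a measurement of the same gene. Both probe sets of Mrpl23, Mrps33, Mrps36 and Mrps5 fell in both genotypes when each was tested by itself with limma, and neither probe set of Mrpl41 or Mrpl51 passed. With the level trend removed Mrpl41, by the probe set used, rose past the threshold (0.32 in S534A and 0.28 in WT, limma adjusted p = 0.00103 and 0.00251). The probe sets of Mrpl27 both stood above 0, and the second one passed in S534A (0.24 ± 0.08, adjusted p = 0.0218). Those of Mrpl47, whose means over 16 arrays were 7.03 each, gave different calls. The one used changed by −0.13 ± 0.10 in S534A and −0.29 ± 0.10 in WT (limma adjusted p = 0.335 and 0.0302), and the other by −0.67 ± 0.16 and −0.40 ± 0.16 (adjusted p = 0.00253 and 0.0524). Mrpl47 thus passed in WT alone by the probe set used and in S534A alone by the other. The probe sets of Mrpl51 differed in sign in WT, at −0.18 ± 0.09 for the one used and 0.02 ± 0.15 for the other.

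Other genes of mitochondrial translation were counted in the same way, against the 31.2% of all tested genes that fell in S534A and the 29.9% that fell in WT. The gene groups here and below were counted with the values as deposited only. They were not counted with the level trend removed, which took the members in S534A from 42 falls to 17. Of 15 translation factors 9 (60%) fell in each genotype and 0 rose, among them the initiation factor Mtif3 (−1.20 ± 0.10 in S534A and −1.08 ± 0.10 in WT), the insertase Oxa1l (−0.71 ± 0.06 and −0.56 ± 0.06) and the formyltransferase Mtfmt (−0.93 ± 0.10 and −0.60 ± 0.10). Another initiation factor, Mtif2, fell by 0.86 ± 0.10 on the log2 scale in S534A, and Taco1, a translational activator, by 0.70 ± 0.09 in WT. Of 23 genes for ribosome assembly and ribosomal RNA modification 13 (56.5%) fell in each, among them Rbfa (−0.86 ± 0.11 and −0.88 ± 0.11) and Mpv17l2 (−0.80 ± 0.09 and −0.79 ± 0.09), and 1 rose in S534A and 2 in WT. Of 16 mitochondrial aminoacyl-tRNA synthetases 7 (43.8%) fell in S534A and 6 (37.5%) in WT, nearer the share of all genes, and 0 and 1 rose. One that fell in both was Nars2 (−0.63 ± 0.11 and −0.41 ± 0.11). Of 4 mitoribosomal proteins with other symbols 1 (25%) fell in S534A and 3 (75%) in WT. Ptcd3 fell in both (−0.56 ± 0.10 and −0.32 ± 0.10), and Dap3 passed in neither (−0.13 ± 0.08 and −0.12 ± 0.08). Gadd45gip1 changed by −0.15 ± 0.08 in S534A and −0.37 ± 0.08 in WT and Chchd1 by −0.09 ± 0.13 and −0.40 ± 0.13, and both passed in WT.

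Genes that copy and transcribe mitochondrial DNA fell in 10 of 11 cases in S534A (90.9%) and 7 of 11 in WT (63.6%). Over all tested genes 31.2% fell and 14.2% rose in S534A, and 29.9% fell and 14.9% rose in WT. Polrmt, the polymerase that Mrpl12 binds, changed by −0.54 ± 0.07 in S534A and −0.67 ± 0.07 in WT (limma adjusted p = 4.97e-06 and 3.88e-07), and the helicase Twnk by −1.09 ± 0.15 and −1.25 ± 0.15. Of 12 regulators of mitochondrial biogenesis 3 (25%) rose and 6 (50%) fell in S534A, and 4 (33.3%) rose and 5 (41.7%) fell in WT. The GABP subunit Gabpb1 rose by 1.11 ± 0.13 in S534A and 1.19 ± 0.13 in WT, while the coactivator Ppargc1b changed by −1.11 ± 0.18 and −1.22 ± 0.18 and the nuclear receptor Esrra by −0.51 ± 0.09 and −0.78 ± 0.09.

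The share that fell varied among other protein groups. Of 75 subunits of the respiratory chain and ATP synthase 24 fell in S534A and 33 in WT, and 1 and 0 rose. Of 53 cytosolic ribosomal proteins 6 (11.3%) fell and 3 rose in S534A, and 16 (30.2%) fell and 1 rose in WT, with medians of −0.02 and −0.13, against 31.2% and 29.9% of all tested genes that fell. Of 20 genes for protein import 11 and 12 fell and 0 rose. Of 14 mitochondrial chaperones and proteases 2 fell and 0 rose in S534A, and 4 fell and 1 rose in WT. Differences between these groups and the members were not tested.

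**Figure D4:**
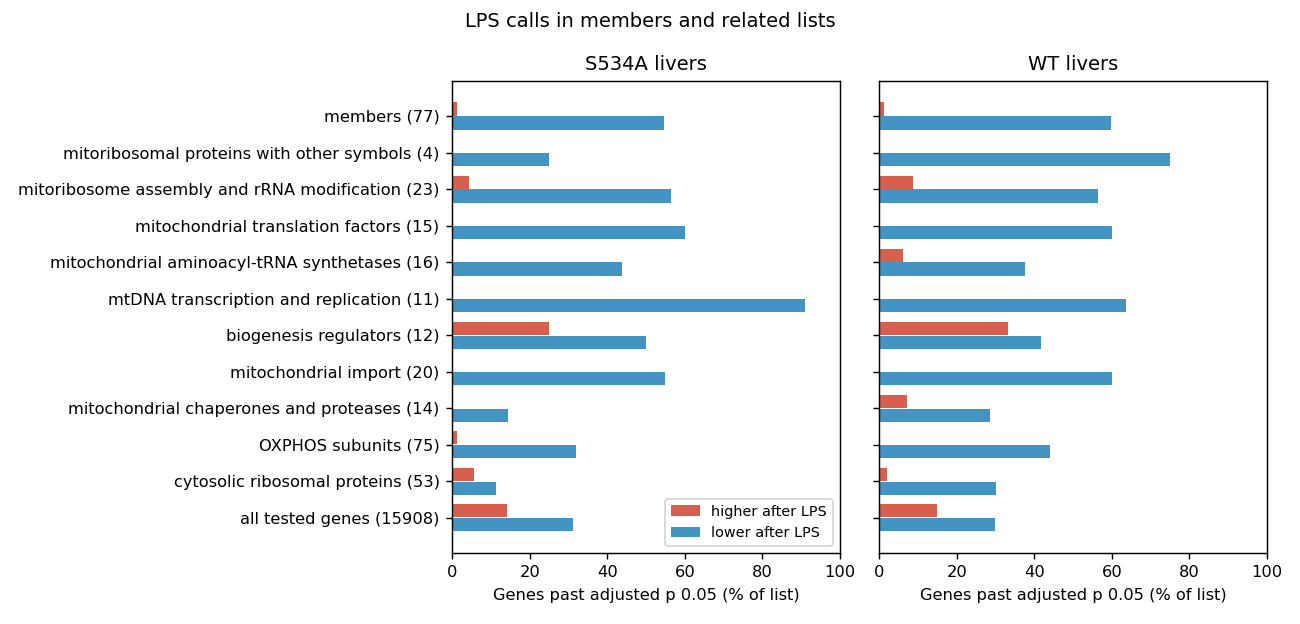
Bars give the percentage of each gene group (number of genes in parentheses) that passed an adjusted p of 0.05 after LPS, higher in red and lower in blue, in S534A livers (left) and WT livers (right). Members reach 54.5% lower in S534A and 59.7% in WT, against 31.2% and 29.9% of all tested genes, and under removal of the level trend 22.1% and 40.3% against 23% and 21.9%.

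Markers of several liver cell types moved with LPS too, in both genotypes. Of all tested genes 31.2% fell and 14.2% rose in S534A, and 29.9% fell and 14.9% rose in WT. Of 11 markers of Kupffer cells, the resident macrophages, 9 fell and 1 rose in each, and their mean level was 7.98 to 8.37 in S534A LPS, 8.24 to 8.61 in WT LPS, 8.86 to 9.38 in untreated S534A and 9.16 to 9.59 in untreated WT arrays. Of 11 markers of sinusoidal endothelium 9 fell and the other 2 rose in each, with a mean level of 8.20 to 8.51 in S534A LPS, 8.30 to 8.73 in WT LPS, 9.61 to 9.79 in untreated S534A and 9.61 to 9.78 in untreated WT arrays. Of 12 neutrophil markers 11 rose in each, with a mean level of 7.76 to 8.10 in S534A LPS, 7.71 to 8.31 in WT LPS, 5.94 to 6.07 in untreated S534A and 5.92 to 6.15 in untreated WT arrays. Stellate cell and fibroblast markers fell in 7 and 6 of 11 cases and rose in 0. Of 9 hepatocyte markers 1 rose and 1 fell in S534A, and 4 rose and 1 fell in WT. They averaged 13.39 to 13.45 in S534A LPS and 13.43 to 13.46 in WT LPS arrays. The untreated averages were 13.36 to 13.41 in S534A and 13.34 to 13.41 in WT. The part of these cell types in the fall of the members was not tested.

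Between the genotypes after LPS, 0 of the 77 members passed by limma, as did 0% of all tested genes, and 4 had an unadjusted p under 0.05 with S534A lower, when 2.08% of all genes did. The median difference was −0.07, S534A minus WT, against −0.0029 over all tested genes, and 59 of 77 members lay below 0, as did 8142 of 15908 genes. These values depended on single arrays. Without WT LPS array 2, 0 members had an unadjusted p under 0.05 with S534A lower, when 1.01% of all genes did. The median was then −0.02 and 46 members lay below 0. The 4 members became 10 without WT LPS array 1 (2.62% of all genes) and 7 without WT LPS array 4 (2.35%). They became 2 without S534A LPS array 2 (1.72%), and 1 without WT LPS array 3 (3.33%) or S534A LPS array 4 (2.04%). The median was also −0.02 with array weights. The lowest p belonged to Mrps11, a small-subunit protein, with 7.63, 7.71, 7.70 and 7.49 in S534A LPS arrays and 7.66, 8.05, 7.92 and 7.77 in WT LPS arrays. These groups overlap, and the difference was −0.22 ± 0.09 (unadjusted p = 0.0270, limma adjusted p = 1.00). Mrpl41, of the large subunit, was 7.83, 7.77, 7.83 and 7.78 in S534A LPS arrays and 7.79, 7.99, 8.03 and 8.01 in WT LPS arrays (−0.15 ± 0.07, unadjusted p = 0.0365). Mrps27, with the values given above, differed by −0.22 ± 0.10 (unadjusted p = 0.0408). Neither passed after adjustment over all genes (limma adjusted p = 1.00).

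Without treatment, members tended to be lower in S534A than in WT livers, and 1 of them passed the threshold. Mrps18a was lower by 0.53 ± 0.08 on the log2 scale in untreated S534A livers (1.45-fold, limma adjusted p = 0.0344), and its S534A values of 9.34 to 9.51 did not overlap the WT values of 9.76 to 10.05. It was the only gene of 15908 called lower, which is 0.00629% of all genes, and the only one called higher was Igfbp1, at 2.00 ± 0.26 (adjusted p = 0.0168). The call for Mrps18a did not hold under several alternatives, while its size stayed between −0.65 and −0.50 in them. It was lost without the 3 untreated arrays whose clock genes stood apart in earlier results, WT 1 and 3 and S534A 3 (−0.65, adjusted p = 0.0611), in a fit of the 2 untreated groups alone (0.255) and with the length trend removed (0.0637). It was also lost without any single untreated S534A array, without untreated WT array 1, 2 or 4, without WT LPS array 4 or without S534A LPS array 1 or 2 (differences of −0.57 to −0.50, adjusted p = 0.0521 to 0.241).

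With Mrps18a included, 27 members had an unadjusted p under 0.05 with S534A lower and 1 with S534A higher, when 4.97% and 3.9% of all genes did. Without untreated S534A array 2 the 27 became 17, when 3.36% of all genes did. For 25 members, Mrps18a among them, every untreated S534A array lay below every untreated WT array, which 3.62% of all genes showed. Mrpl47 was one of them by the probe set used (−0.31 ± 0.10), while its second probe set stood at 0.26 ± 0.16. The probe sets of Mrpl51 (−0.10 ± 0.09 and 0.23 ± 0.15) and Mrps33 (0.06 ± 0.07 and −0.01 ± 0.06) also differed in sign. Both probe sets of Mrpl23, Mrpl27, Mrpl41, Mrps36 and Mrps5 stood below 0. The median difference was −0.14 against −0.0019 over all tested genes, and 61 of 77 members lay below 0, as did 8079 of 15908 genes. Following Mrps18a, the lowest p-values were those of Mrps24 (−0.28 ± 0.06), Mrpl14 (−0.30 ± 0.07), Mrps7 (−0.27 ± 0.07), Mrpl34 (−0.30 ± 0.08) and Mrpl46 (−0.27 ± 0.07), with limma adjusted p of 0.159, 0.159, 0.208, 0.223 and 0.239. The 1 member higher in S534A was Mrpl18 (0.24 ± 0.09, unadjusted p = 0.0129).

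Without the arrays of shifted clock genes, 3 untreated S534A arrays and 2 untreated WT arrays were left. On these the mean deviation of members was 0.110, 0.041 and 0.092 in S534A (arrays 1, 2 and 4) and 0.197 and 0.205 in WT (arrays 2 and 4), and in a fit without the 3 arrays 20 members had an unadjusted p under 0.05 with S534A lower, when 4.87% of all genes did. With the length trend removed the number was 17, when 3.75% of all genes did, and with the level trend removed it was 26, when 5.43% did. Other gene groups held such genes too: of 53 cytosolic ribosomal proteins 18 had an unadjusted p under 0.05 with S534A lower (median −0.10), as did 20 of 75 respiratory chain and ATP synthase subunits (median −0.07) and 1 of 15 mitochondrial translation factors (median 0.01). Hepatocyte markers averaged 13.36 to 13.41 in untreated S534A and 13.34 to 13.41 in untreated WT arrays, and Kupffer cell markers 8.86 to 9.38 and 9.16 to 9.59. The causes of the shift were not tested.

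**Figure D5:**
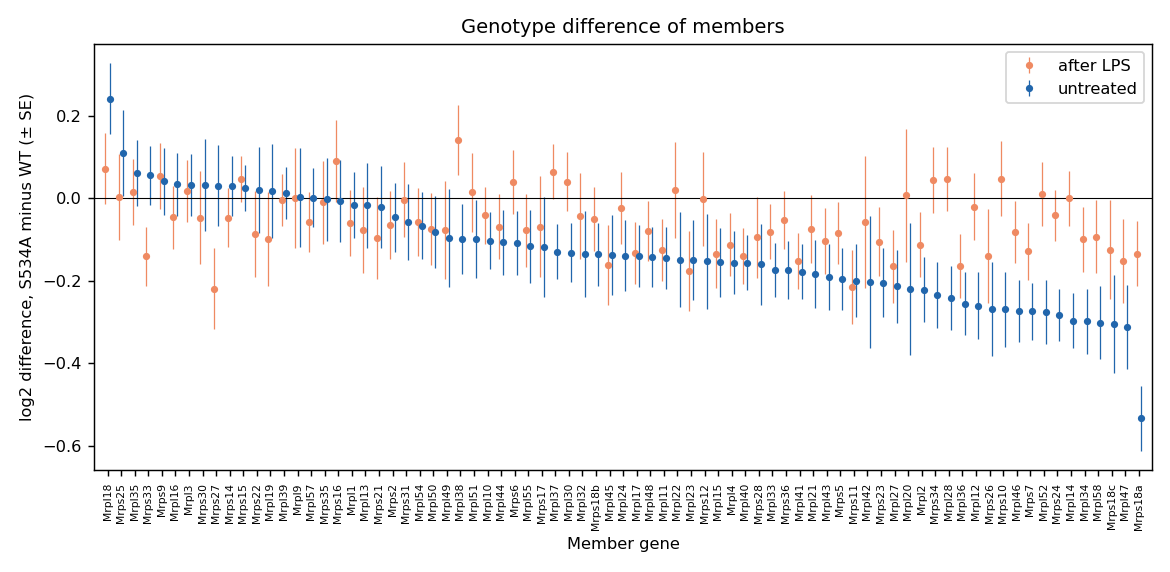
The log2 difference between genotypes (S534A minus WT, vertical axis, ± SE of the limma fit, n = 4 per group) is drawn for each member after LPS (orange) and without treatment (blue), in order of the untreated difference. Untreated values lie below 0 for 61 of 77 members, with Mrps18a lowest at −0.53, and LPS values for 59 of 77 with a median of −0.07.

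No member's LPS effect differed between genotypes past the threshold. In the interaction, which subtracts the WT effect of LPS from the S534A effect, limma called 0 of the 77 members and 0% of all genes, and 7 members had an unadjusted p under 0.05, all with a value above 0, when 2.01% of all genes did so in that direction. The number was 13 without WT LPS array 3 and 14 with array weights, when 2.24% and 5.87% of all genes did. It was 5 with the length trend removed and 5 without the 3 arrays of shifted clock genes, when 1.53% and 2.41% did. In these last fits 1 and 2 members had such a p with a value below 0, when 2.76% and 1.79% of all genes did. The median was 0.06, and it was 0.03 without WT LPS array 1 and 0.10 without WT LPS array 2. This comparison uses the same 16 arrays as the others, untreated groups included, so it is no separate evidence for the untreated difference. Mrps18a had the lowest p, at 0.40 ± 0.11 (unadjusted p = 0.00254, limma adjusted p = 0.925).

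Mrpl14, a large-subunit protein with a bacterial homologue, came next at 0.30 ± 0.09 (unadjusted p = 0.00610). It was 9.27, 9.22, 9.21 and 9.22 after LPS and 9.35, 9.41, 9.38 and 9.54 untreated in S534A, and 9.12, 9.23, 9.18 and 9.39 after LPS and 9.72, 9.68, 9.78 and 9.70 untreated in WT. Its LPS change was −0.19 ± 0.07 in S534A (limma adjusted p = 0.0250) and −0.49 ± 0.07 in WT (1.22e-05). The S534A call was lost without S534A LPS array 2, 3 or 4 or untreated S534A array 4 (0.0521 to 0.0953), after a second quantile normalization (0.133) and with the length trend removed (0.215), and the sign turned with the level trend removed (0.018, adjusted p = 0.865). Mrps24, a small-subunit protein with a bacterial homologue, stood at 0.24 ± 0.09 in the interaction (unadjusted p = 0.0140, limma adjusted p = 0.951). It was 9.53, 9.57, 9.55 and 9.65 after LPS and 9.68, 9.64, 9.60 and 9.69 untreated in S534A, and 9.47, 9.68, 9.68 and 9.63 after LPS and 9.99, 9.93, 9.87 and 9.95 untreated in WT. For both genes the untreated WT arrays were the 4 highest of the 16, and the LPS groups of the genotypes overlapped. The LPS change of Mrps24 was −0.08 ± 0.06 in S534A (0.13 with the level trend removed) and −0.32 ± 0.06 in WT (limma adjusted p = 0.323 and 0.000403).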

How the data were processed

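RNA of 16 whole-liver samples was measured on 1-colour Affymetrix arrays. Per the labels' protocols, the RNA was isolated on columns, amplified and labelled with biotin. The authors deposited log2 values, and the submitters' processing notes name RMA, a method that corrects background, equalizes array distributions by quantiles and summarizes probes by median polish. The version of RMA was not given in the sources used. Where distributions are made equal, a change shared by most genes can be hidden. The deposited values were not fully equal, since the array medians were higher in LPS arrays than in untreated ones. The number of arrays limits the precision.

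Of 35556 probe sets, 21789 carried 1 platform symbol, 1621 carried several and 12146 carried none. Looked up by gene identifier in RefSeq (GRCm38.p6), 21698 matched and 0 symbols changed. Probe sets above the 30th percentile of their array in at least 4 arrays were kept (26037). Each gene took its probe set of highest mean. Groups came from the sample titles. A single limma 3.58.1 fit in R 4.3.3 (lmFit, contrasts.fit, eBayes) over all 16 arrays gave 4 group means with 12 residual degrees of freedom and no covariate. The 5 comparisons were two-sided and Benjamini-Hochberg adjusted over 15908 genes, with a threshold of 0.05. The median SE of a change was 0.099 and of an interaction 0.140. The fit was tested on simulated data. Figures were drawn with matplotlib 3.10.9.

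Members and gene lists were chosen with earlier results of these data known. Values per array were given for the 10 largest rises and falls past the threshold in each LPS comparison, for members past the threshold or the 3 of lowest p in genotype comparisons and the interaction, and for Mrpl12, Mrpl58, Mrps18a, Mrps18b, Mrps18c, Mrps30 and Mrps36. From other lists up to 4 genes of lowest p could be named. Mrpl20, Mrpl40, Mrpl44, Mrpl45, Mrps34 and other members given without array values, and Igfbp1, were picked after their values were seen. Alternatives changed the filter, probe set rule, scaling, weights, variance prior, replicate block, groups in the fit, thresholds and arrays.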

Additional observations from a re-analysis of the deposited data

Results flagged for a closer look

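In 3 of 92 groups of 4 arrays, those of the 22 members given by array and of the mean over all members, 1 array stood apart from the other 3 by most of the group's range. Chance alone gives this in about 1 of 20 groups. Mrpl14 was 9.27 on S534A LPS array 1 and 9.21 to 9.22 on the other 3 arrays of that group. Mrps18b was 10.68 on the same array and 10.53 to 10.55 on the others. Mrps35 was 8.44 on untreated S534A array 3 and 8.73 to 8.79 on the others.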

How the results depend on the processing

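The number of members that fell after LPS (42 in S534A and 46 in WT) stayed within 1.5 times under every alternative other than 2: removal of the level trend gave 17 in S534A, and a 1.5-fold minimum gave 8 in S534A and 9 in WT, which follows from its construction. Leaving out 1 array at a time gave 36 to 45 falls in S534A and 39 to 53 in WT. Rises in S534A, 1 as reported, became 2 with a filter at the median of the array, probe sets averaged, each probe set by itself, the replicate block or only 2 groups, 5 after a second quantile normalization, 6 with the length trend removed or with array weights, 15 with the level trend removed, 0 at 1.5-fold, and 1 to 3 when 1 array was left out. Rises in WT, also 1, became 2 after quantile normalization or weights, 4 and 6 with the length and level trends removed, 0 at 1.5-fold, and 1 to 2 when 1 array was left out. In the untreated genotype comparison the 1 lower member became 7 with array weights (and 1 higher member, where 0 were reported). With these weights 0.974% of all genes were called lower and 1.35% higher. The 1 lower member became 0 with the length trend removed, the replicate block, only 2 groups, a 1.5-fold minimum, a threshold of 0.01 or without the 3 arrays of shifted clock genes, and 0 to 1 when 1 array was left out. The LPS change of Mrpl14 in S534A turned to 0.018 with the level trend removed. The cause of these changes was not tested.

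With the replicate number as a block 40 members fell in S534A and 45 in WT, and Mrps18a in untreated livers had a limma adjusted p of 0.116. The numbers were not taken as a pairing. Of 24 same-numbered pairs of arrays 9 had deviations correlated above 0.1 (range −0.49 to 0.59). Differently numbered pairs reached values such as −0.59 and 0.57, so these correlations do not decide whether a pairing exists. Of 1576 values for the named members under alternatives, 1494 kept direction and side of the threshold, 67 lost the call, 14 gained it and 1 changed sign. Of 38 calls, 29 held under all alternatives other than the 1.5-fold minimum and the threshold of 0.01. Signal over background was not assessed.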
